A study of Oryza sativa with 12 samples.

Results

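Leaves of rice that carried PSARK::IPT and had been left without water were compared with leaves of watered wild-type rice. The comparison used 6 of the 12 arrays of the study, 3 per group, chosen by their labels, and read all 57194 probe sets other than the array's own controls and reporters for foreign sequences. Flag leaves, the last leaf below the panicle, were taken from greenhouse plants at 10 weeks of age, and the water treatment fell before flowering. IPT_stressed held PSARK::IPT plants after 3 days of water stress. WT_watered held well-watered wild-type plants. WT_stressed (wild type, 3 days of stress) and IPT_watered (PSARK::IPT, well watered) held 3 arrays each and served to place the levels and to estimate the spread. All plants compared shared the tissue, the age and the greenhouse. Genotype and water both differed between the compared groups, so their effects cannot be told apart from these 6 arrays alone. The replicates are called biological in the labels, and the number of transformed lines is not given in the sources used here.

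PSARK is the promoter of a receptor kinase gene that becomes active as leaves age, and IPT is isopentenyltransferase, the enzyme that makes the first cytokinin precursor. Cytokinins are hormones that delay leaf ageing and hold chlorophyll, sugars and nitrogen in the leaf. Leaf water loss raises abscisic acid, whose receptors inhibit PP2C phosphatases and so release the SAPK kinases that switch on drought genes. The comparison asks how far stressed transgenic leaves lie from untreated wild-type leaves in photosynthesis, hormone, nitrogen, sugar and stress genes.

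Before the genes, the array's reporter and control probe sets were examined. Probe set RPTR-Os-K01193-1_at, which detects a foreign sequence, read 2.06, 2.35 and 6.03 on a log2 scale on the WT_watered arrays and 9.86, 10.37 and 10.26 on the IPT_stressed arrays. Its mean was 8.98 in WT_stressed and 2.08 in IPT_watered, so it parted the groups by their water label rather than by their genotype label. RPTR-Os-AF292559-4_s_at did the same, at 2.61, 7.97, 7.68 and 2.11 in WT_watered, IPT_stressed, WT_stressed and IPT_watered. If these reporters mark transgenic plants, which the sources used here do not state, the arrays labelled WT_stressed and IPT_watered go against their labels, while the 2 compared groups go with theirs except for WT_watered replicate 3. An exchange of the labels of those other 2 groups would leave every value of the comparison as it is and would exchange the genotype and water parts given below. All group names below mean the arrays so labelled. The deposited values are RMA values on a log2 scale, where a difference of 1 is 2-fold.

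The array controls also differed between the compared groups. The Bio spike-ins averaged 10.58 ± 0.21 (SD, n = 3) in WT_watered and 8.09 ± 0.28 in IPT_stressed. The 3' probe set of GAPDH exceeded the 5' one by 5.99 ± 1.06 and by 3.86 ± 0.48, a difference that grows with RNA breakdown or incomplete copying. The standard deviation over probe sets ran from 2.04 to 2.09 on the WT_watered arrays and from 2.20 to 2.22 on the IPT_stressed arrays. Correlations between arrays were 0.946 to 0.994 within the study's groups and 0.932 to 0.965 between the compared groups. Levels below 3.62 in WT_watered or 3.34 in IPT_stressed were counted as background, from 106 probe sets for foreign sequences. Both reporters described above were among these 106.

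**Figure D1:**
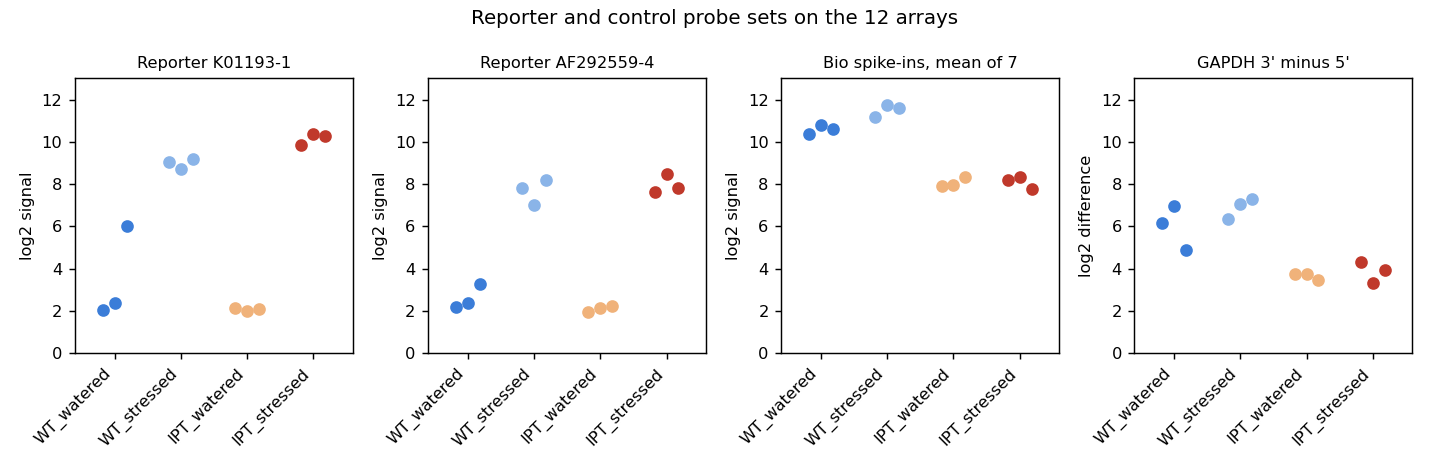
Log2 signal of 2 reporters, mean log2 signal of 7 spike-in probe sets and the log2 difference between 3' and 5' GAPDH probe sets (vertical axes), for the 4 groups as labelled (horizontal axes), with a point for each array. Both reporters are high on the arrays labelled stressed, WT_watered replicate 3 reads 6.03 in the first panel, and the spike-ins and GAPDH part the labelled genotypes.

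Of 57194 probe sets, 12671 (22.2%) passed limma's test (Benjamini-Hochberg adjusted p below 0.05), and 4034 of them changed by at least 2-fold. Higher values in IPT_stressed made up 6428 of the calls (11.2% of the probe sets) and lower values 6243 (10.9%). This split depended on the scale of the arrays: 50.7% of the calls were higher as deposited, 52.5% after quantile normalization and 72.2% once every array had the same median, a step that took the overall median change from -0.10 to 0.02. The split also followed brightness. Among probe sets with a mean of at least 5 over the arrays, 3412 rose and 1071 fell, and among dimmer ones 3016 rose and 5172 fell. Entering the GAPDH difference, which itself differed between the compared groups, as a covariate left 266 calls.

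With 1 probe set standing for each gene, 4137 of 17905 genes (23.1%) were called, 3092 higher (17.3%) and 1045 lower (5.84%). Higher genes made up 74.7% of these calls, against 57.7% after quantile normalization and 88.0% with equal array medians. The median change over all genes was 0.12. Of the called genes 1921 stayed called without each of the 6 arrays in turn, and the number called ran from 2351 without IPT_stressed replicate 1 to 4044 without WT_watered replicate 3. Without IPT_stressed replicate 3 or WT_watered replicate 2 it was 2359 and 2464. With the GAPDH covariate 74 genes were called. A fall in a leaf sample can mean fewer cells of a type or less RNA per cell, which such arrays cannot tell apart.

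The other groups show along which label this distance lies. The remaining contrasts, which share arrays with this one, gave 240 calls for WT_stressed minus WT_watered, 10981 for IPT_watered minus WT_watered, 101 for IPT_stressed minus IPT_watered and 26357 for IPT_stressed minus WT_stressed. For each gene the change was divided into a genotype part, the mean of the IPT minus WT differences in both water conditions, and a water part, the mean of the stressed minus watered differences in both labelled genotypes. The parts add up to the change. The genotype part was the larger in 3707 of the 4137 called genes (89.6%) and in 75.7% of all genes. Among called genes that rose, its median was 0.93 and that of the water part -0.07; among those that fell, the medians were -0.62 and -0.10. Because genotype as labelled runs together with the spike-in and GAPDH differences, these cannot be told apart in the genotype part.

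The 15 largest rises among named genes held 2 ammonium transporters, 1 monosaccharide transporter, 3 chitinases and genes of other roles. Genes were ranked if they had a name other than a locus number, a call and groups of arrays that did not overlap, which held for 593 of 604 called named genes (the groups did not overlap in 46.1% of all probe sets and 45.8% of all genes). OsAMT3;2, an ammonium transporter, read 3.64, 3.34 and 4.07 in WT_watered and 9.33, 6.03 and 8.30 in IPT_stressed, a rise of 4.21 (SE 0.89, adjusted p = 0.00689). All IPT_stressed arrays lay above all WT_watered arrays, as the ranking required, with IPT_stressed replicate 2 well below replicates 1 and 3. Its probe set may also read related transcripts. OsAT5, an acyltransferase of the BAHD family, read 3.40, 2.67 and 3.63 and 8.46, 5.83 and 8.71. Its log2 change was 4.43 (SE 0.87, adjusted p = 0.00483). This is given as at least 16.5-fold higher, since its WT_watered mean lay at background. Throughout, SE is that of the log2 change, also where it stands beside a fold. Here too IPT_stressed replicate 2 was the lowest of its group.

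Of the ranked genes OsJAZ2, which represses jasmonate responses, had the largest rise, 4.96 (SE 1.18, adjusted p = 0.0121). Its values were 1.99, 2.17 and 7.13 in WT_watered and 8.70, 8.70 and 8.76 in IPT_stressed. WT_watered replicate 3 alone was high, as it was for the reporter, and without that array the change was 6.64 (adjusted p = 0.00037). The call was lost without WT_watered replicate 1 or 2 (adjusted p = 0.0502 and 0.0553), and with the GAPDH covariate the change was 1.57 (adjusted p = 0.719). The gene averaged 9.16 in WT_stressed and 3.50 in IPT_watered, so its water part of 5.31 exceeded its genotype part of -0.35.

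OsBIMK2, a MAP kinase, read 3.93, 3.06 and 4.50 against 8.04, 6.29 and 7.59, a rise of 3.48 (SE 0.48, adjusted p = 0.000733). Os4bglu12, a beta-glucosidase, rose by 3.0 (SE 0.72, adjusted p = 0.0124) with 0.58 by another probe set, and the call was lost without WT_watered replicate 2 or IPT_stressed replicate 3 (adjusted p = 0.0532 and 0.0502). PSK4, a precursor of the peptide hormone phytosulfokine, read 6.51, 6.19 and 6.71 against 10.30, 8.06 and 9.97 and rose by 2.97 (SE 0.47, adjusted p = 0.00146). In each of these genes the groups did not overlap, which the ranking required. IPT_stressed replicate 2 was the lowest of its group in 15 of the 15 largest rises. The mean of IPT_stressed was the highest of the 4 groups in 14 of them, and WT_watered was the lowest in 14. A ranking by the difference of these groups favours such extremes. WT_watered replicate 3 was the highest of its group in 12, and the water part was the larger in 12 of the 15.

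Pi21, a proline-rich protein with a metal-binding domain whose inactive alleles slow rice blast, had the largest fall. It read 9.72, 10.92 and 8.62 in WT_watered and 3.46, 6.13 and 4.47 in IPT_stressed, a log2 change of -5.07 (SE 0.96, adjusted p = 0.0038). The arrays did not overlap, as the ranking required, although they spread by over 2 units within each group. It averaged 10.70 in WT_stressed and 5.33 in IPT_watered, so that the genotype part was -5.22 and the water part 0.15. A second probe set of the gene changed by -2.0.

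Other large falls were of genes of unlike function. OsMT-I-2c, a metallothionein, a small metal-binding protein, read 11.69, 12.71 and 12.36 against 7.18, 9.28 and 8.44, a change of -3.95 (SE 0.88, adjusted p = 0.00916), and its other probe sets changed by -3.86 to -2.91. OsHAK10, a potassium transporter, changed by -1.83 (SE 0.30, adjusted p = 0.00179). CSTLP4, a nucleotide sugar transporter-like protein, changed by -2.13 (SE 0.29, adjusted p = 0.000648). OsBBD1, a nuclease, changed by -1.78 (SE 0.28, adjusted p = 0.00138). In all of them the WT_watered arrays lay above the IPT_stressed arrays, which the ranking required. ROMT-17, an O-methyltransferase, changed by -1.86 (SE 0.42, adjusted p = 0.00986), but its other probe sets gave -1.81 to 0.39. ADIPOR1, a membrane protein named after the animal adiponectin receptors, changed by -1.56 (SE 0.35, adjusted p = 0.00928). The genotype part was the larger in 13 of the 15 largest falls, against 3 of the 15 largest rises and 89.6% of all called genes. IPT_stressed had the lowest mean of the 4 groups in 12 falls, which the ranking by this difference favours.

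**Figure D2:**
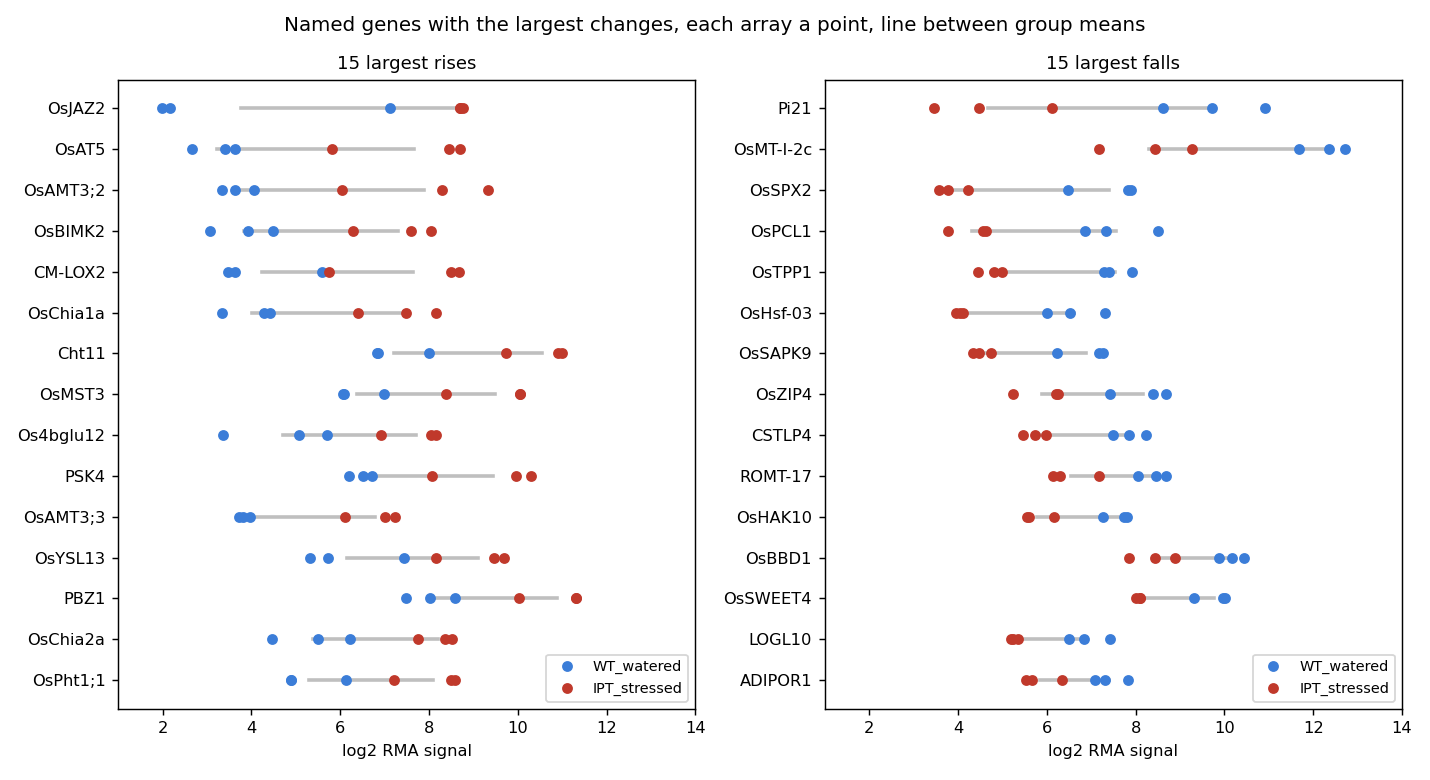
Log2 RMA signal (horizontal axes) of the 15 named genes with the largest rises and the 15 with the largest falls (rows), with a point for each WT_watered and IPT_stressed array and a grey line between the group means. The groups do not overlap in any row, a condition of the ranking, and WT_watered replicate 3 of OsJAZ2 lies at 7.13, near the IPT_stressed arrays.

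**Figure D3:**
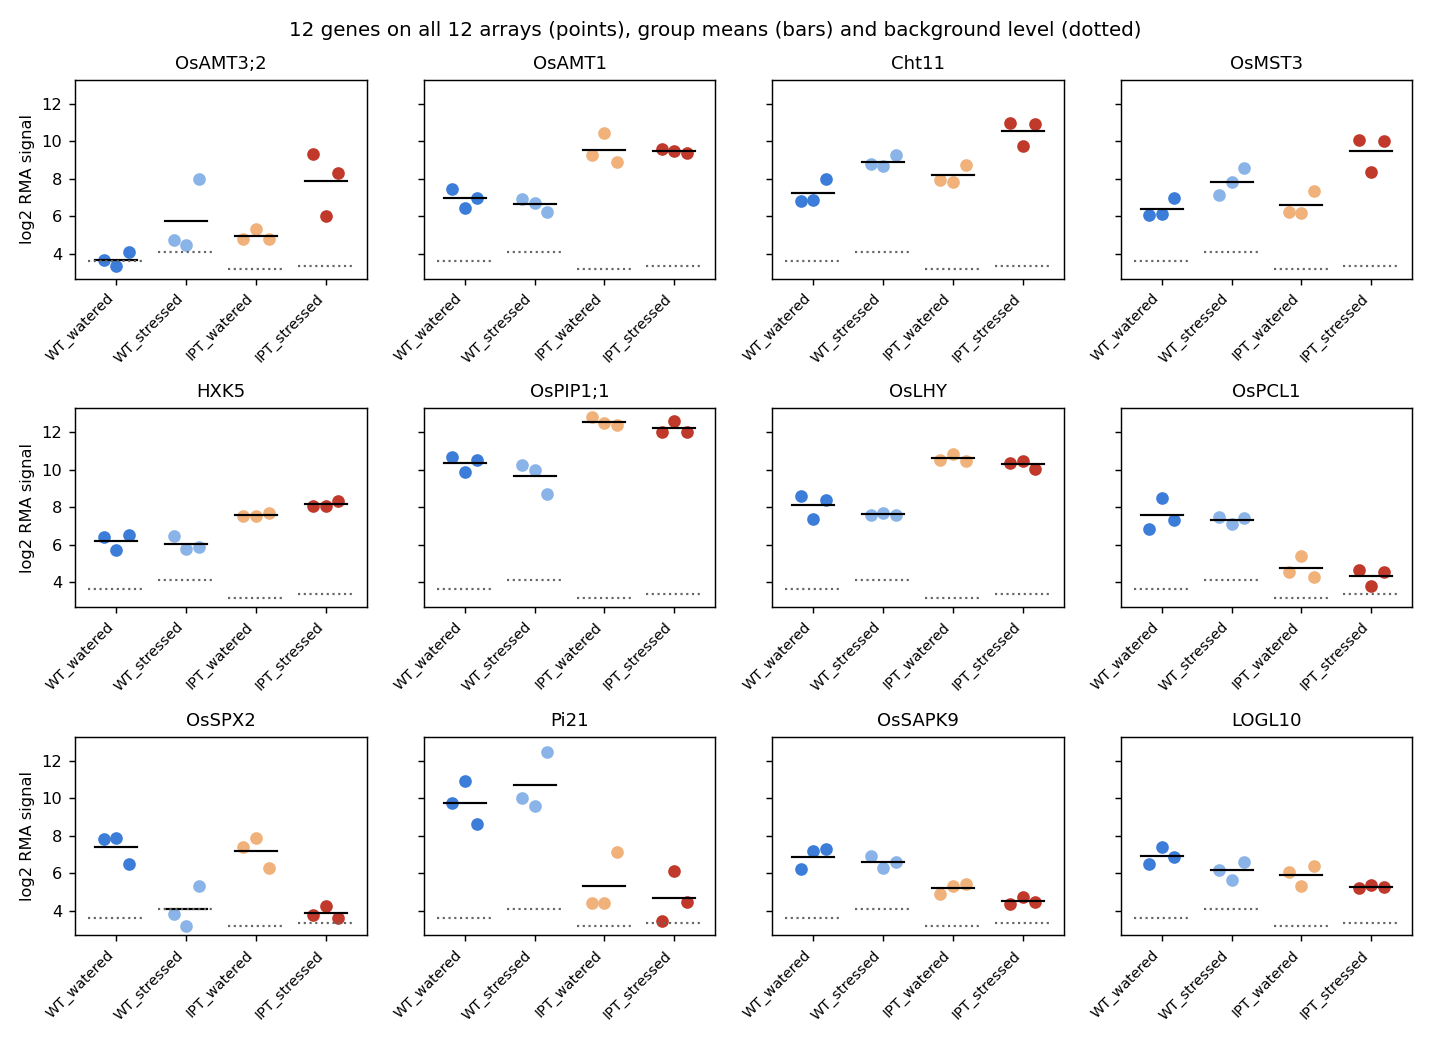
Log2 RMA signal (vertical axes) of 12 genes on all 12 arrays in the 4 groups as labelled, with array values as points, group means as solid bars and the background level of each group as dotted lines. OsSPX2 is low in both groups labelled stressed, whereas Pi21, OsPCL1 and OsSAPK9 are low in both groups labelled IPT.

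The topics of the comparison were covered by 30 lists, which held 744 different genes, of which 174 lay at background in both groups. Members were found by gene symbol or alias, since 0 of the 94 loci set by number matched the annotation, so a list holds only part of its pathway. Of the 744, 192 (25.8%) were called, 140 higher (18.8%) and 52 lower (6.99%), beside 23.1%, 17.3% and 5.84% of all genes. The median change of the list genes was 0.08, beside 0.12 for all genes. Without IPT_stressed replicate 1 or 3 or WT_watered replicate 2 the list genes called were 116, 118 and 117. Of those called, 16 lower and 2 higher ones lay at background in both groups and have no fold. Counts below are of all members found for a list, to be read beside 17.3% higher and 5.84% lower over all genes. The groups of arrays did not overlap in 45.8% of all genes, so a lack of overlap given below is common. It was a condition for the genes that were also ranked above.

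The GAPDH covariate, a measure tied to RNA quality, ended 189 of these 192 calls. Its means also differed between the compared groups, 5.99 in WT_watered and 3.86 in IPT_stressed, which lowers the precision of this fit. The covariate made the change smaller by over 1.5 times in 55 of the 192, larger by over 1.5 times in 14 and opposite in 1, ALADH. OsPIP1;1 then changed by 0.88, OsCIN4 by 0.84, OsPP2C10 by 0.90 and HXK5 by 1.2. OsLIC changed by 0.71, OsMADS1 by 0.46, OsBAK1 by 0.41 and OsSPX2 by -2.17. These 8 genes thus kept their direction with a smaller change and no call. CYP99A3 and CYP99A2 were among those whose change grew, to 2.06 and 2.40, also without a call. A lost call thus did not always go with a smaller change. OsAMT3;2, PBZ1 and OsTPP1 lost theirs with larger changes of 5.62, 3.81 and -3.40.

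Photosynthesis genes were called at shares near or below the 23.1% of all genes. Of 11 genes of photosystems and light harvesting 2 rose and 0 fell, with a median change of 0.05 that became -0.06 after quantile normalization. petC, the Rieske protein of the cytochrome b6f complex, read 12.24, 12.11 and 12.15 against 12.59, 12.83 and 12.70, a rise of 0.54 (SE 0.15, adjusted p = 0.0214). LHCP, a light-harvesting chlorophyll protein, rose by 0.40 (SE 0.13, adjusted p = 0.0438). Both rises were smaller than 2-fold, and the groups did not overlap. petC was no longer called without WT_watered replicate 2 or IPT_stressed replicate 2 or 3 (adjusted p up to 0.0757), and LHCP kept its call only without WT_watered replicate 3 (adjusted p up to 0.129 without the others). The mean over the list ran from 11.48 to 11.60 on the WT_watered arrays and from 11.55 to 11.81 on the IPT_stressed arrays, far above background in both groups.

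Of 13 genes of carbon fixation and photorespiration 3 rose and 0 fell, with a median of 0.13 that became -0.01 after quantile normalization. ALDP, an aldolase of the Calvin cycle, read 12.40, 12.01 and 12.71 against 13.32, 13.53 and 13.45 (1.06, SE 0.23, adjusted p = 0.00808). rca, Rubisco activase, read 12.73, 12.49 and 13.09 against 13.46, 13.50 and 13.42 (0.69, SE 0.15, adjusted p = 0.00813). FBPase, the cytosolic fructose-bisphosphatase of sucrose synthesis and 1 of 2 genes listed under that name, rose by 1.05 (SE 0.21, adjusted p = 0.00485). The groups did not overlap in these genes, and all their other probe sets changed upward as well. With the GAPDH covariate ALDP and rca changed by 0.30 each (adjusted p = 0.698 and 0.581). OsrbcS, a small subunit of Rubisco, changed by 0.16 (SE 0.25, adjusted p = 0.675) and did not pass, and its other probe sets gave -0.86 to -0.51.

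Among 14 chlorophyll synthesis genes 1 rose and 0 fell, with 11 positive changes and a median of 0.36. ALADH, an early enzyme of the pathway, read 7.45, 5.93 and 8.63 against 8.83, 9.16 and 8.77 (1.58, SE 0.51, adjusted p = 0.0436). Its WT_watered arrays were spread over more than 2 units, the call held only without WT_watered replicate 3 (adjusted p up to 0.123 without the others), and the change was -0.58 with the GAPDH covariate. CHLH, a subunit of the magnesium chelatase, changed by 1.0 (SE 0.39, adjusted p = 0.0881) and did not pass. None of 5 genes of chlorophyll breakdown and leaf senescence was called. OsNOL, a chlorophyll b reductase, had the smallest p of these, with a change of 0.29 (SE 0.33, adjusted p = 0.553) and overlapping arrays; its other probe set gave 1.77. OsSAG12, a senescence-associated protease, changed by -0.04 (SE 0.19, adjusted p = 0.914), and SGR, the stay-green protein that removes magnesium from chlorophyll, by 0.04 (SE 0.64, adjusted p = 0.97).

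The cytokinin list, which holds genes of synthesis, breakdown and signalling, moved in both directions. Of 31 genes 6 rose and 4 fell, with a median of 0.07, and the split was 3 and 4 after quantile normalization and 9 and 3 with equal array medians. LOG proteins release active cytokinin from its nucleotides, and of 8 measured 2 rose and 2 fell. LOGL10 read 6.49, 7.41 and 6.84 against 5.19, 5.35 and 5.24 (-1.66, SE 0.31, adjusted p = 0.00355), and LOGL6 changed by -1.28 (SE 0.39, adjusted p = 0.0363). LOGL9 and LOGL7 moved the opposite way, by 1.68 (SE 0.49, adjusted p = 0.0289) and 1.30 (SE 0.28, adjusted p = 0.00744). LOGL10 and LOGL7 kept their calls without each array in turn, and their groups did not overlap. LOGL6 was called only without IPT_stressed replicate 2 (adjusted p up to 0.128 without the others). LOGL9, whose groups overlapped, was called only without WT_watered replicate 3 or IPT_stressed replicate 2 (adjusted p up to 0.113).

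Cytokinin oxidases, the CKX enzymes, degrade the hormone. OsCKX5 read 4.19, 4.80 and 4.34 against 3.41, 3.36 and 3.34 (-1.07, SE 0.16, adjusted p = 0.000961), and was the 1 called of 5. OsCKX11 changed by 1.49 (SE 0.69, adjusted p = 0.14) and OsCKX4 by 1.19 (SE 0.46, adjusted p = 0.0815), without passing. In signalling, the receptor kinase OsHK4 rose by 1.05 (SE 0.24, adjusted p = 0.0103), and the type-B response regulator RR21, a transcription factor at the end of the relay, read 7.28, 7.03 and 7.40 against 8.10, 7.98 and 8.09 (0.82, SE 0.17, adjusted p = 0.00568). Of the 13 response regulators 2 rose, 1 fell and 10 were not called. OsRR5, a type-A regulator that is induced by cytokinin and damps the relay, was called lower (-0.69, SE 0.14, adjusted p = 0.00467) at levels that lay at background in both groups. The genotype part was the larger in all 10 called genes of this list, beside 89.6% of all called genes.

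Of 16 abscisic acid genes 1 rose and 2 fell, beside 17.3% and 5.84% of all genes, with a median of 0.19. OsSAPK9, a kinase activated by abscisic acid and by osmotic stress, read 6.22, 7.17 and 7.27 against 4.34, 4.75 and 4.47, a change of -2.36 (SE 0.27, adjusted p = 0.00025), which is 5.15-fold lower. Every IPT_stressed array lay below every WT_watered array, and the call held with the GAPDH covariate, where the change was -2.85 (adjusted p = 0.0366). It averaged 6.60 in WT_stressed and 5.20 in IPT_watered. OsSAPK5, another kinase of the family, changed by -0.78 (SE 0.15, adjusted p = 0.00486). OsSAPK3 changed by 1.16 (SE 0.33, adjusted p = 0.0285), with overlapping groups and no call without WT_watered replicate 1 or 3 or IPT_stressed replicate 2 or 3 (adjusted p up to 0.106). The other 7 SAPK kinases were not called, nor were OsABA8ox1 and OsABA8ox2, enzymes that break the hormone down, at 0.15 (SE 0.66, adjusted p = 0.89) and 0.24 (SE 0.18, adjusted p = 0.373).

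PP2C protein phosphatases, a family of which some members hold back abscisic acid signalling, rose in larger number. Of 55 genes 20 rose and 3 fell, beside 17.3% and 5.84% of all genes. Their median was 0.45, and 8 rose and 3 fell after quantile normalization. OsPP2C10 read 8.0, 7.40 and 7.99 against 9.28, 9.37 and 9.07 (1.45, SE 0.19, adjusted p = 0.000527). OsPP2C32 read 4.08, 3.73 and 4.72 against 5.82, 6.21 and 6.26 (1.92, SE 0.32, adjusted p = 0.00208). OsPP2C35, known as XB15 from its binding to an immune receptor, rose by 1.35 (SE 0.23, adjusted p = 0.00226). The groups were apart in these genes. OsPP2C73 was lower, by a change of -1.03 (SE 0.17, adjusted p = 0.00189), and its other probe sets gave -0.77 to -0.19. The genes named so far kept their calls without each array in turn. The rises of OsPP2C09 and OsPP2C68 and the fall of OsPP2C07 were lost whichever array was left out (adjusted p up to 0.140). The rises of OsPP2C14, OsPP2C39, OsPP2C44, OsPP2C48, OsPP2C57, OsPP2C61, OsPP2C67 and OsPP2C71 were lost without some of the arrays (adjusted p up to 0.143). In all 23 called members the genotype part was the larger, beside 89.6% of all called genes. The family's median water part was -0.22.

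Brassinosteroids, gibberellins and ethylene regulate growth and ripening through separate pathways. Of 17 brassinosteroid genes 3 rose and 1 fell, with a median of 0.19. OsLIC, a zinc finger protein that opposes brassinosteroid signalling, read 4.63, 4.35 and 4.87 against 5.66, 5.77 and 5.69 (1.09, SE 0.13, adjusted p = 0.000349). GSK1, a GSK3-like kinase that represses the pathway, rose by 1.07 (SE 0.19, adjusted p = 0.0027), and the co-receptor kinase OsBAK1 by 0.81 (SE 0.16, adjusted p = 0.0047). All IPT_stressed arrays were above all WT_watered arrays for each of them. OsDWARF11, a synthesis enzyme, was lower (-0.73, SE 0.23, adjusted p = 0.0393), a call that held only without WT_watered replicate 3 (adjusted p up to 0.143 without the others).

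Of 14 gibberellin genes 1 rose and 3 fell, and the median of -0.02 became 0.10 with equal array medians. SLR1, the DELLA protein that blocks gibberellin responses, read 7.57, 8.18 and 7.63 against 6.31, 6.80 and 6.50 (-1.25, SE 0.28, adjusted p = 0.00963), with groups apart. EUI, which inactivates gibberellins, and OsKO1, a synthesis enzyme whose probe set may read its close copies, changed by -0.50 (SE 0.15, adjusted p = 0.0289) and -0.55 (SE 0.18, adjusted p = 0.0473). Another probe set of OsKO1 gave -0.00047. EUI was called without WT_watered replicate 3 and lost without each other array (adjusted p up to 0.0987), and OsKO1 was called without WT_watered replicate 1 and lost without each other array (adjusted p up to 0.130). OsKO5 was called higher (0.53, SE 0.16, adjusted p = 0.0374) with both groups at background, and only IPT_stressed replicate 2 could be left out without losing that call (adjusted p up to 0.152). Of 11 ethylene genes 3 rose and 0 fell, with a median of 0.02 that became -0.06 after quantile normalization. OsEIN2, the central transducer of the signal, read 7.25, 7.41 and 7.55 against 8.07, 8.02 and 8.18 (0.69, SE 0.15, adjusted p = 0.00782), the receptor OsETR3 rose by 0.54 (SE 0.13, adjusted p = 0.013), and OsACS2, an enzyme of ethylene synthesis, was at least 1.25-fold higher (SE 0.22, adjusted p = 0.0149). OsACS2 lost its call without IPT_stressed replicate 1 or 3 (adjusted p up to 0.0600).

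More auxin genes fell than rose as deposited, but not with equal array medians. Of 58 genes 5 rose and 8 fell, with a median of -0.17, while the split was 5 and 4 with equal array medians and 2 and 7 after quantile normalization. IAA proteins, which repress auxin responses and are themselves induced by auxin, held 4 of the falls and 0 rises among 26 members. Of these 26, 14 lay above background in a group. IAA3 read 9.53, 10.33 and 9.44 against 7.83, 9.06 and 8.11 (-1.43, SE 0.30, adjusted p = 0.00667), a change that another probe set gave as -0.14. IAA30 was called lower (-0.64, SE 0.14, adjusted p = 0.00945) at background levels. IAA1 kept its call only without WT_watered replicate 3 or IPT_stressed replicate 2 (adjusted p up to 0.106 without the others). IAA31 kept its call only without WT_watered replicate 3 (adjusted p up to 0.140 without the others). ARF24, an auxin response factor, read 7.37, 7.08 and 7.20 against 8.48, 8.39 and 8.37 (1.19, SE 0.22, adjusted p = 0.00304). OsGH3-2, which conjugates auxin to amino acids, read 3.51, 3.15 and 3.77 against 5.60, 5.79 and 5.61 and was at least 4.13-fold higher (SE 0.41, adjusted p = 0.00365). Its arrays stood clear of each other between the groups.

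Jasmonate is the hormone of wounding and of defence against chewing insects. Of 40 genes 9 rose and 2 fell, beside 17.3% and 5.84% of all genes, with a median of 0.18. Lipoxygenases open the pathway, and CM-LOX2, also named LOX9, read 3.48, 3.63 and 5.59 against 8.50, 5.75 and 8.67 (3.41, SE 0.98, adjusted p = 0.0287). Its groups nearly touched, its other probe sets gave 0.59 to 1.15, and the call was lost without WT_watered replicate 1 or 2 or IPT_stressed replicate 1 or 3 (adjusted p up to 0.107). AOS2, an allene oxide synthase, read 3.14, 2.99 and 3.21 against 3.95, 4.28 and 4.25 and was at least 1.46-fold higher (SE 0.22, adjusted p = 0.0065). OsJAR1, which makes the active isoleucine conjugate, read 5.98, 5.01 and 6.49 against 7.35, 7.44 and 7.12 (1.48, SE 0.30, adjusted p = 0.00592). The groups were apart for AOS2 and OsJAR1, and OsJAR1 changed by 0.37 with the GAPDH covariate (adjusted p = 0.688). OsJAMyb, a jasmonate-induced MYB factor, was at least 1.19-fold higher (SE 0.24, adjusted p = 0.0041). Among 17 JAZ and TIFY genes 3 rose and 1 fell, and besides OsJAZ2 the rises were of OsJAZ4 (1.02, SE 0.22, adjusted p = 0.00691, with -0.26 by another probe set) and 1 of 2 genes listed as OsJAZ3 (0.80, SE 0.22, adjusted p = 0.0218). That gene was called only without WT_watered replicate 3 (adjusted p up to 0.0874 without the others). OsOPR6 was called lower (-0.57, SE 0.12, adjusted p = 0.00571) with both groups at background.

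The called nitrogen genes were all higher, the more common direction over all genes. Of 22 genes 7 rose and 0 fell, beside 17.3% and 5.84% of all genes. Their median was 0.58, and 11 rose with equal array medians. Of 8 ammonium transporters 4 rose. OsAMT1, also named OsAMT1;1, read 7.43, 6.46 and 6.95 against 9.58, 9.49 and 9.37 (2.53, SE 0.36, adjusted p = 0.000765), with the IPT_stressed arrays close together and far above the WT_watered arrays. OsAMT1 averaged 6.63 in WT_stressed and 9.54 in IPT_watered, and its other probe set changed by 0.89 between the compared groups. OsAMT3;3 read 3.97, 3.72 and 3.82 against 7.0, 6.10 and 7.23, and its change of 2.94 (SE 0.27, adjusted p = 8.04e-05) was 3.17 with the GAPDH covariate (adjusted p = 0.0342). In WT_stressed and IPT_watered it averaged 5.09 and 5.06, between the compared groups. OsAMT3;3 thus had nearly equal genotype and water parts, 1.46 and 1.49, whereas those of OsAMT1 were 2.72 and -0.19.

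OsDUR3, a urea transporter, read 3.61, 3.99 and 3.76 against 6.49, 5.82 and 6.13 (2.36, SE 0.41, adjusted p = 0.00239). Its groups did not overlap. OsGS2, the plastid glutamine synthetase that takes up photorespiratory ammonium, rose by 0.61 (SE 0.20, adjusted p = 0.0476), and OsGDH2, a glutamate dehydrogenase, by 0.69 (SE 0.22, adjusted p = 0.0415). OsGS2 was called only without WT_watered replicate 3 (adjusted p up to 0.167 without the others) and OsGDH2 only without WT_watered replicate 1 or IPT_stressed replicate 2 (adjusted p up to 0.16). Other probe sets gave -0.09 for OsGS2 and -0.69 to 0.12 for OsGDH2. OsGS1;2 and OsGS1;1, the cytosolic forms, changed by 0.85 (SE 0.31, adjusted p = 0.0708) and 0.55 (SE 0.36, adjusted p = 0.29) and did not pass. Fd-GOGAT, the leaf glutamate synthase, and NIA1, a nitrate reductase, were not called either, at 0.38 (SE 0.14, adjusted p = 0.0778) and 0.33 (SE 0.41, adjusted p = 0.593). None of 3 nitrate transport genes passed.

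Sugar genes moved both ways. Of 66 genes of sucrose and starch metabolism and transport 15 rose and 6 fell, with a median of 0.03, while 8 rose and 4 fell after quantile normalization and 12 rose and 3 fell without WT_watered replicate 3. OsMST3, a monosaccharide transporter, read 6.06, 6.10 and 6.99 against 10.05, 8.38 and 10.05 (3.11, SE 0.51, adjusted p = 0.00173). HXK5, a hexokinase that also acts in glucose sensing, read 6.42, 5.74 and 6.51 against 8.07, 8.06 and 8.34 (1.94, SE 0.22, adjusted p = 0.000256). OsCIN4, a cell wall invertase that splits sucrose outside the cell, read 5.80, 5.65 and 6.38 against 7.33, 7.32 and 7.22 (1.34, SE 0.21, adjusted p = 0.00122). These 3 were higher on every IPT_stressed array than on any WT_watered array. Of 7 hexokinases 3 rose and 1 fell, and of 4 sucrose transporters 2 rose, OsSUT2 by 0.93 (SE 0.22, adjusted p = 0.0133) and OsSUT4 by 0.68 (SE 0.12, adjusted p = 0.00286). OsSUT2 was not called without WT_watered replicate 2 or IPT_stressed replicate 2 (adjusted p up to 0.0527).

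OsTPP1, a phosphatase that makes trehalose, read 7.40, 7.29 and 7.93 against 4.81, 5.0 and 4.45, a change of -2.79 (SE 0.37, adjusted p = 0.000573), which is 6.91-fold lower. It averaged 7.24 in WT_stressed and 5.38 in IPT_watered. OsSWEET4, a hexose transporter, read 9.31, 9.96 and 10.00 against 8.11, 8.09 and 8.01 (-1.69, SE 0.23, adjusted p = 0.000627) and was the only called gene of 12 SWEET transporters. Both genes were lower on every IPT_stressed array. DPE2, which breaks down maltose from starch, was lower as well (-0.84, SE 0.28, adjusted p = 0.0492), but lost its call whichever of the 6 arrays was left out (adjusted p up to 0.138). The other 3 called falls, of OsMST5, OsTPP6 and HXK3, lay at background in both groups.

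Drought genes were read as protective proteins and as regulators. Of 9 genes of LEA proteins and dehydrins, which protect cells as they dry, 0 rose, and 5 of 9 lay at background in both groups. The 1 call, of rab25 (-0.45, SE 0.12, adjusted p = 0.0256), was among these. It was lost with WT_watered replicate 1 or any IPT_stressed array left out (adjusted p up to 0.0922). RAB21 changed by -0.02 (SE 0.39, adjusted p = 0.974) and salT by -0.18 (SE 0.30, adjusted p = 0.703). Of 26 drought regulators 5 rose and 0 fell, near the shares of all genes, with a median of 0.02. OsHox22, a homeodomain factor of abscisic acid and drought responses, read 6.57, 6.24 and 6.50 against 8.04, 8.36 and 7.71 (1.60, SE 0.37, adjusted p = 0.01) and averaged 8.90 in IPT_watered and 5.78 in WT_stressed. OsDREB2B, a factor that binds dehydration-responsive elements, rose by 1.08 (SE 0.24, adjusted p = 0.00833). A gene listed as OsNAC5 and ONAC071 rose by 1.30 (SE 0.30, adjusted p = 0.0109), but its other probe sets gave -1.55 and -0.22. OsDREB2A was at least 1.08-fold higher (SE 0.18, adjusted p = 0.025), a call lost without WT_watered replicate 2 or 3 or IPT_stressed replicate 1 or 3 (adjusted p up to 0.102). OsBZIP23, a regulator of abscisic acid responses, did not pass at 0.92 (SE 0.35, adjusted p = 0.0787).

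Water channels rose more often than they fell, as did the called genes in all. Of 25 aquaporins 10 rose and 2 fell, beside 17.3% and 5.84% of all genes. Their median was 0.41, and 7 rose and 2 fell without WT_watered replicate 3. PIP proteins, the channels of the plasma membrane, held 7 of the rises and 1 fall among 10 members. With equal array medians 11 of the 25 rose and after quantile normalization 9. OsPIP1;1 read 10.68, 9.89 and 10.53 against 12.05, 12.62 and 12.02 (1.86, SE 0.35, adjusted p = 0.00371). OsPIP2;1 read 8.88, 8.94 and 9.15 against 10.44, 10.12 and 10.22 (1.27, SE 0.16, adjusted p = 0.000432), but its other probe sets gave -1.28 to 1.38. OsPIP2;5 was at least 1.72-fold higher (SE 0.35, adjusted p = 0.00599). The groups did not overlap for any of these. OsTIP4;1, a channel of the vacuole membrane, read 10.42, 10.79 and 10.13 against 8.72, 9.02 and 8.95 (-1.55, SE 0.32, adjusted p = 0.00637) and was thus lower on every IPT_stressed array. OsPIP2;7 was lower too (-0.83, SE 0.18, adjusted p = 0.00861). In all 12 called aquaporins the genotype part was the larger, beside 89.6% of all called genes.

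Among 23 antioxidant genes 5 rose and 2 fell, with a median of 0.18, and 3 rose and 1 fell without WT_watered replicate 3. OsMDAR2, which regenerates ascorbate, read 9.07, 8.62 and 9.13 against 9.99, 10.36 and 10.20 (1.24, SE 0.24, adjusted p = 0.00408). CatB, a catalase, was lower by the probe set that stood for it (-0.95, SE 0.17, adjusted p = 0.00273), while its others gave -1.02 to 1.12, so its direction depended on the probe set. GSTF2, a glutathione transferase, rose by 1.47 (SE 0.37, adjusted p = 0.0156), which was not called without WT_watered replicate 2 or IPT_stressed replicate 3 (adjusted p = 0.0608 and 0.0545), and the change was 0.36 with the GAPDH covariate (adjusted p = 0.801). PRX112, a peroxidase, rose by 0.98 (SE 0.23, adjusted p = 0.0111), with 0.27 by another probe set. Of 6 osmoprotectant genes 1 rose: INO1, which makes inositol phosphate, read 7.43, 6.52 and 6.29 against 8.70, 8.46 and 7.66 (1.53, SE 0.41, adjusted p = 0.0207). It lost its call without WT_watered replicate 2 or 3 or IPT_stressed replicate 1 or 2 (adjusted p up to 0.0832). OSP5CS, an enzyme of proline synthesis, did not pass at 1.22 (SE 0.45, adjusted p = 0.0718).

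Heat stress factors accounted for most calls among 43 heat shock genes, of which 8 rose and 1 fell. The shares over all genes were 17.3% and 5.84%, and the median of the list was 0.26. Of 17 factors 6 rose and 1 fell, and of 21 small heat shock proteins 2 rose and 0 fell. HSFA4D, whose mutant forms lesions, read 4.72, 4.52 and 5.22 against 7.35, 5.97 and 7.77 (2.21, SE 0.50, adjusted p = 0.00994). HSFA9, listed as hsp, read 5.07, 4.65 and 5.23 against 6.22, 6.22 and 6.50 (1.33, SE 0.17, adjusted p = 0.000404). HSFC1B, also OsHsf-03, read 6.01, 7.32 and 6.53 against 3.96, 4.05 and 4.11 (-2.58, SE 0.33, adjusted p = 0.000459). The groups were apart in each, with HSFC1B on the low side in IPT_stressed. HSFA1 rose by 0.80 (SE 0.18, adjusted p = 0.00866). Both called small heat shock proteins lost their calls without most of the arrays, OsHsp16.9B with adjusted p up to 0.108 and OsHsp17.9B up to 0.0866. Of the factors, HSFA3 and HSFA5 were lost without some arrays (adjusted p up to 0.0765 and 0.119).

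Defence genes linked to salicylate held, as deposited, the highest share of rises of the lists. Of 24 genes 10 rose and 2 fell, beside 17.3% and 5.84% of all genes. Their median was 0.83, and 12 rose and 1 fell without WT_watered replicate 3. Chitinases degrade fungal cell walls, and 4 of 10 rose. Cht11 read 6.83, 6.85 and 7.99 against 11.002, 9.73 and 10.91 (3.33, SE 0.39, adjusted p = 0.000304), which is 10-fold higher. OsChia1a, also named Cht1, read 4.42, 3.33 and 4.29 against 7.47, 6.40 and 8.16 (3.33, SE 0.67, adjusted p = 0.00534). OsChia2a, also named Cht2, rose by 2.81 (SE 0.51, adjusted p = 0.00308), with 0.65 to 3.59 by its other probe sets. All 3 were higher on every IPT_stressed array, and Cht11 averaged 8.91 in WT_stressed and 8.18 in IPT_watered.

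OsNPR1, a central coactivator of salicylate responses, read 4.87, 4.03 and 5.08 against 6.87, 6.31 and 6.85 (2.02, SE 0.28, adjusted p = 0.000735). PBZ1, a pathogenesis-related protein induced by the plant activator probenazole, read 8.59, 8.02 and 7.49 against 11.31, 10.03 and 11.32 (2.85, SE 0.61, adjusted p = 0.00749). OsWRKY51, a WRKY factor, read 5.75, 5.50 and 6.73 against 7.78, 7.60 and 7.98 (1.80, SE 0.27, adjusted p = 0.00121). No WT_watered array reached the lowest IPT_stressed array in these genes. Of 6 WRKY genes 3 rose and 0 fell. OsNPR2 and OsNPR3, relatives of OsNPR1, were lower, by -0.81 (SE 0.15, adjusted p = 0.00322) and -0.70 (SE 0.19, adjusted p = 0.0225). OsNPR3 was called only without WT_watered replicate 1 or IPT_stressed replicate 1 (adjusted p up to 0.0904 without the others), and its other probe sets gave -0.0038 to 0.69. The water part was the larger in 7 of the 12 called genes of this list and in 3 of the 5 called phytoalexin genes below, against 430 of the 4137 called genes in all.

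Diterpenoid phytoalexins are antimicrobial compounds that rice makes under attack. Of 16 of their synthesis genes 5 rose and 0 fell, beside 17.3% and 5.84% of all genes. Their median was 0.82, and 2 rose after quantile normalization and 2 without WT_watered replicate 3. OsCPS4, a cyclase at the entry to the momilactone branch, read 2.14, 2.18 and 2.23 against 5.57, 3.52 and 5.76 and was at least 2.52-fold higher (SE 0.61, adjusted p = 0.00872). IPT_stressed replicate 2 was again the lowest of its group, though above all WT_watered arrays. CYP76M8, an oxidase of this pathway with close copies, rose by 0.90 (SE 0.15, adjusted p = 0.00196). CYP99A3 and CYP99A2, which lie in the same branch, rose by 1.14 (SE 0.32, adjusted p = 0.0265) and at least 2.56-fold (SE 0.41, adjusted p = 0.0269). CYP99A3 was called only without WT_watered replicate 2 or IPT_stressed replicate 2 (adjusted p up to 0.108 without the others), and CYP99A2 only without IPT_stressed replicate 2 (adjusted p up to 0.109). The fifth call, of CYP71Z6 (0.95, SE 0.31, adjusted p = 0.0448), was lost without each of the arrays (adjusted p up to 0.125). CYP71Z7 was at least 7.08-fold higher but did not pass (SE 1.13, adjusted p = 0.0579).

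The clock list was small, with 1 rise and 2 falls among 7 genes. OsLHY, a morning-expressed clock repressor, read 8.61, 7.36 and 8.40 against 10.39, 10.49 and 10.06 (2.19, SE 0.27, adjusted p = 0.000349), while a second probe set gave -0.04. OsPCL1, an evening-expressed clock factor, read 6.86, 8.51 and 7.32 against 4.64, 3.78 and 4.55 (-3.24, SE 0.40, adjusted p = 0.000353), which is 9.43-fold lower. OsPRR1, the counterpart of TOC1 in Arabidopsis, read 8.21, 8.59 and 8.46 against 7.51, 7.45 and 7.48 (-0.94, SE 0.21, adjusted p = 0.00964). The groups did not overlap in any of the 3 genes. In each the genotype part was the larger, as in 89.6% of all called genes. The sampling time of day of each group is not given in the sources used here, and its part in these values was not tested.

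Metal and phosphate transport genes gave calls in both directions. Of 53 metal homeostasis genes 9 rose and 2 fell, with a median of -0.02 that became 0.10 with equal array medians and 0.01 after quantile normalization. OsZIP2, of the ZIP family of zinc and iron transporters, read 4.13, 4.06 and 4.11 against 6.85, 5.90 and 6.92 (2.45, SE 0.28, adjusted p = 0.000262), and the change was 3.06 with the GAPDH covariate (adjusted p = 0.0342). OsZIP4, a zinc transporter, read 8.68, 7.42 and 8.39 against 6.26, 6.22 and 5.23 (-2.26, SE 0.44, adjusted p = 0.00478). These members of one family thus lay on opposite sides with no overlap of arrays. OsYSL13, of a family that carries metals bound to nicotianamine, rose by 2.94 (SE 0.55, adjusted p = 0.00352), and OsMTP5, of a family of cation exporters, by 1.44 (SE 0.29, adjusted p = 0.00492).

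Of 19 phosphate genes 1 rose and 4 fell, with a median of -0.25. OsSPX2, of the SPX proteins that sense inositol pyrophosphates and restrain phosphate starvation responses, read 7.83, 7.89 and 6.47 against 3.78, 4.22 and 3.58 (-3.53, SE 0.55, adjusted p = 0.00132), which is 11.6-fold lower. It averaged 4.09 in WT_stressed and 7.18 in IPT_watered, so the water part of -3.31 carried nearly all of its fall. OsPht1;1, a phosphate transporter, read 4.88, 4.89 and 6.13 against 8.49, 7.22 and 8.58 (2.80, SE 0.41, adjusted p = 0.00096). All its IPT_stressed arrays were the higher ones by this probe set, but its other probe set gave a change of 0.36. OsPht1;3 changed by -1.13 (SE 0.15, adjusted p = 0.000587), but its other probe sets gave -0.68 to 0.47. OsPht1;2 was at least 1.53-fold lower (SE 0.14, adjusted p = 0.0038).

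**Figure D4:**
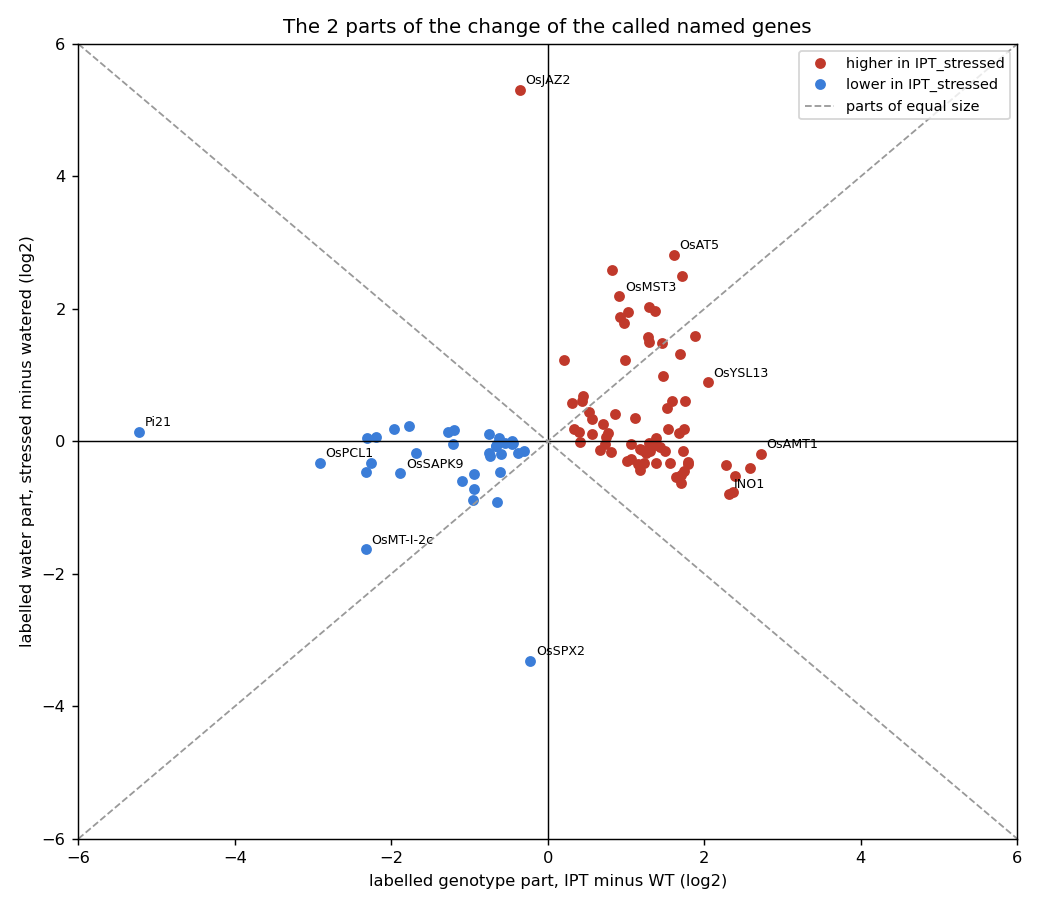
Labelled genotype part (horizontal axis) and labelled water part (vertical axis) of the log2 change, for the named genes that were called, with red points for genes higher and blue points for genes lower in IPT_stressed. The dashed lines mark parts of equal size; OsJAZ2 and OsSPX2 lie along the water axis, and for most of the other genes the genotype part is the larger.

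Genes of other tissues and of dividing cells were read as a check of what the leaf samples held. Of 17 panicle and floral organ markers 4 lay above background in a group, with 1 rise and 2 falls, and the list mean ran from 2.95 to 3.07 on the WT_watered arrays and was 2.97 on the IPT_stressed arrays. OsMADS1, a floral organ gene, read 5.08, 5.24 and 5.85 against 6.38, 6.37 and 6.62 (1.07, SE 0.24, adjusted p = 0.00849). The falls, of LAX1 and OSH1, lay at background in both groups; LAX1 was called only without WT_watered replicate 3, and OSH1 lost its call whichever array was left out (adjusted p up to 0.131 and 0.149). Of 8 anther markers 3 were above background in a group, and RTS was called lower at background, though not without WT_watered replicate 2 or IPT_stressed replicate 1 or 3 (adjusted p up to 0.06); the list mean was 3.64 to 3.88 and 3.53 to 3.64. Of 7 root markers 3 were above background, with list means of 3.50 to 3.66 and 3.43 to 3.61, and OsSCR1, a ground tissue factor, was called at least 1.97-fold higher (SE 0.25, adjusted p = 0.0176). Without WT_watered replicate 1 or IPT_stressed replicate 1 or 3 OsSCR1 was not called (adjusted p up to 0.0761).

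Of 75 genes of dividing cells 40 lay above background in a group, 6 rose and 4 fell, and the list mean was 3.93 to 4.02 in WT_watered and 3.94 to 4.05 in IPT_stressed. OsORC2, of the origin recognition complex, read 4.93, 4.69 and 5.03 against 5.93, 5.93 and 5.88 (1.03, SE 0.15, adjusted p = 0.000885). Replication factor C, which loads the DNA clamp, had 3 rises among 5 subunits, such as OsRFC2 at 0.75 (SE 0.12, adjusted p = 0.00131). OsRFC1 was called only without WT_watered replicate 3 or IPT_stressed replicate 3 (adjusted p up to 0.0753 without the others). OsRFC3 lost its call without WT_watered replicate 2 or IPT_stressed replicate 1 (adjusted p up to 0.0607), and changed by 0.25 with the GAPDH covariate. The MCM helicase subunits had 0 rises and 1 fall, at background, among 8. KIN13A, a kinesin, rose by 0.90 (SE 0.20, adjusted p = 0.00829). Of 20 ribosomal protein genes 19 changed upward and 1 was called, RPL7A (0.89, SE 0.23, adjusted p = 0.0174); 6 were called without WT_watered replicate 3, and RPL7A changed by 0.08 with the GAPDH covariate (adjusted p = 0.927) and was lost without WT_watered replicate 1 or 2 or IPT_stressed replicate 1 or 3 (adjusted p up to 0.0683).

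**Figure D5:**
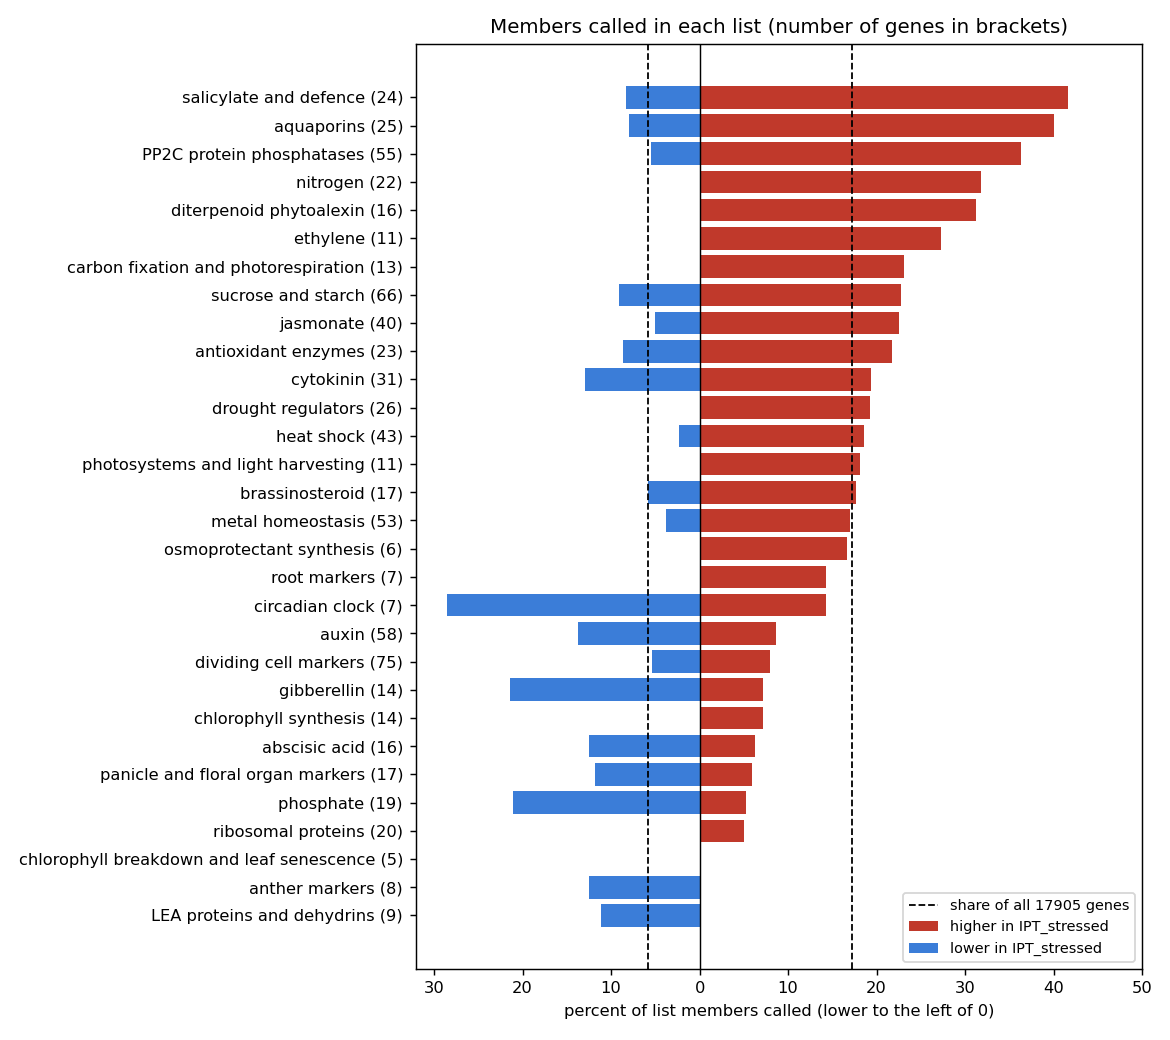
Percent of the genes of each list (rows, number of genes in brackets) called higher (red, to the right of 0) or lower (blue, to the left) in IPT_stressed than in WT_watered. The dashed lines give the share of all 17905 genes; the defence, aquaporin and PP2C lists reach furthest to the right and the clock list, with 7 genes, furthest to the left.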

How the data were processed

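The authors' deposited values were log2 values made with RMA, per the submitters' processing notes; the sources used here name no software or version. In RMA, background correction, normalization and probe summaries use the arrays together, so each value depends on the other arrays. Probe sets for controls (123) and reporters (64) were kept out of the tests, which left 57194, with no filter. Of these 22436 were tied to 1 gene, 95 to several and 34663 to none listed; names came from RefSeq aliases (ASM3414082v1), of which 2457 of 17905 genes had one other than a locus number. The probe set with the highest mean stood for its gene, and some probe sets (ending _s_at, _a_at or _x_at) can read related transcripts.

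Differences were fitted with limma 3.58.1 in R 4.3.3 (lmFit, eBayes) with one mean per group over all 12 arrays, checked on simulated data, and adjusted over all tested probe sets. The simulated arrays had independent noise, with the same spread on every array and no group differences in the controls. That check therefore says nothing about such features of the real arrays. SE is the moderated standard error of the log2 change, also where a fold is given. The number of arrays limits the precision: the smallest two-sided p of an exact test with 3 arrays a group is 0.1. Background was the 95th percentile of 106 foreign probe sets' group means, all reporters included, and folds against it are lower bounds. Genes were named by rule: the 15 largest rises and 15 largest falls, then at most 4 genes per list, taken by smallest p, and in a list without calls the 1 with the smallest p; other list members are named for their function or to account for counts. Members, lists and rules were chosen with earlier results of these data known.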

Additional observations from a re-analysis of the deposited data

Results flagged for a closer look

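In 3 reporter probe sets, for foreign sequences outside the comparison, the mean lay above background in IPT_stressed and over 1 log2 unit above that in WT_watered. Reporters above background without a difference of over 1 log2 unit are not described. RPTR-Os-K01193-1_at averaged 10.16 there and 3.48 in WT_watered. RPTR-Os-AF292559-4_s_at averaged 7.97 and 2.61. RPTR-Os-U89963-1_at averaged 4.24 and 3.13, with 4.0 in IPT_watered and 3.45 in WT_stressed. The last of these was higher in both groups labelled IPT, unlike the first pair, which was high in both groups labelled stressed. Reporters also fell. RPTR-Os-J01636-1_at averaged 5.20 in WT_watered and 3.32 in IPT_stressed (-1.88), with 6.37 in WT_stressed and 3.35 in IPT_watered. RPTR-Os-AJ002682-2_s_at averaged 4.11 and 2.98 (-1.13), with 5.14 in WT_stressed and 3.06 in IPT_watered. Both were lower in the groups labelled IPT, and the cause of these falls was not tested.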

How the results depend on the processing

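The 12671 called probe sets became 19132 with array weights, 4206 (2488 genes, 127 list genes) with a minimum mean of 5 over the arrays and 266 (74 genes, 3 list genes) with the GAPDH difference as a covariate. Without each array in turn the calls ran from 7169 to 12709 probe sets, from 2351 to 4044 genes and from 116 to 181 list genes, against 192 with all arrays. Fits to the 6 arrays alone, with trend and robust options, with quantile normalization and with equal array medians gave 14262, 12694, 8489 and 11358 probe sets. The replicate numbers did not pair the arrays: same-numbered deviations correlated at 0.03, 0.12 and 0.19, and a replicate block gave 12658 calls; replicate 1 did not correlate best with its own number. Of 107 named genes called, 83 were called without each array in turn. Under equal array medians 6, under quantile normalization 19 and under the covariate 104 of the named genes lost their call, and none changed direction with either scaling. ALADH reversed with the covariate, to -0.58. Other probe sets reversed ROMT-17 (0.39), OsNAC5 (-1.55 and -0.22), CatB (0.0049 and 1.12), OsPIP2;1 (-1.28), OsLHY (-0.0367) and OsPht1;3 (0.47). The cause of these differences was not tested. Dim genes limit the falls: of the 52 list genes called lower, 16 lay at background in both groups.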
